A study of Homo sapiens with 3 samples.

Results

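CRY1 occupancy was examined at 8 genes that build or tune the circadian clock: the activators BMAL1, BMAL2, CLOCK and NPAS2, the casein kinases CSNK1D and CSNK1E, the F-box gene FBXL21P, and TIMELESS. Peaks were assigned to a gene when the summit, the base of highest read pileup, lay inside the gene body or within 50 kb of it. Of the 2551 CRY1 peaks in the list, 5 met this rule, and they belonged to 3 of the 8 genes. For a gene with no such peak, the nearest summit on each side was taken instead. The data came from C4-2, an established human prostate cancer cell line of castration-resistant disease, maintained for a day before harvest in medium that contains hormone. The series holds 3 libraries from these cells, namely 2 CRY1 immunoprecipitates and 1 input of unprecipitated chromatin, all from vehicle-treated cells, with no second treatment, time course or second cell line. The peaks were called on both immunoprecipitates combined, so no value below has a replicate error, and a peak present in only 1 library cannot be told from a shared one.

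In the mammalian clock, CLOCK or its paralog NPAS2 pairs with BMAL1 or its paralog BMAL2, and the pair activates genes through the E-box CACGTG. PER and CRY proteins, which are among the products of those genes, return to the nucleus and repress the same complex, so CRY1 reaches chromatin mainly through its protein partners. How long the repressors last is set after translation. The casein kinases encoded by CSNK1D and CSNK1E phosphorylate PER proteins and mark them for destruction. The F-box protein FBXL21 directs the attachment of ubiquitin to CRY proteins, although the human gene is annotated as a pseudogene (FBXL21P). TIMELESS binds CRY and PER proteins and is better known for protecting replication forks. BMAL1 is itself under clock control through the RORE, the element bound by the ROR activators and REV-ERB repressors.

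The sequences at the 5 peaks are given here on GRCh37, with the E-box in capitals, because they show how differently the motif was arranged at each locus. The CSNK1D sequence (chr17:80246000-80246149, plus strand) holds 3 E-boxes in a run of similar units. Those of the CSNK1E promoter (chr22:38714428-38714528, minus strand), the TIMELESS promoter (chr12:56843211-56843290, minus strand) and the GLS2 promoter upstream of TIMELESS (chr12:56881391-56881491, minus strand) each hold 1. The TIMELESS promoter sequence begins just upstream of the gene, so it leaves out the summit of its peak (12:56843197) and runs past the peak's end (12:56843277). For the peak just inside TIMELESS (chr12:56842947-56843047, minus strand), which has no E-box, the capitals mark the GC box GGGCGG.
CSNK1D upstream peak: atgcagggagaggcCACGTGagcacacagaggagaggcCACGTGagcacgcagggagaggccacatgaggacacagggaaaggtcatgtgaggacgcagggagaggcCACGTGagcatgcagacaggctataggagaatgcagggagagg
CSNK1E promoter peak: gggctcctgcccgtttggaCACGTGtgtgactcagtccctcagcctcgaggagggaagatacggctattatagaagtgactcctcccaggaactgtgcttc
TIMELESS promoter peak: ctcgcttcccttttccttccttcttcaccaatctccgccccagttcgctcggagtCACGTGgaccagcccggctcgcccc
GLS2 promoter peak: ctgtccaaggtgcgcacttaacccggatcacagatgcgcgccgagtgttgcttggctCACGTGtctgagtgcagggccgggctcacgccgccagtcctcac
TIMELESS peak inside the gene: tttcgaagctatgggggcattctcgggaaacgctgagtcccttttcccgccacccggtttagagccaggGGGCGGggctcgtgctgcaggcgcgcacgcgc

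CRY1 peaks were found at CSNK1D, CSNK1E and TIMELESS, and none at BMAL1, BMAL2, CLOCK, NPAS2 or FBXL21P. The count was thus 0 of 4 for the activators and 3 of 4 for the kinase, FBXL and TIMELESS genes. By the same rule, 22.1% of all 20163 protein-coding genes had a summit (4464 genes), so that having none was the common state and a count of 0 of 4 is close to this background. At the scale of promoters, 2 of the 8 genes, CSNK1E and TIMELESS, had a summit no more than 5 kb from an annotated transcription start site (TSS), as did 8.22% of protein-coding genes. Genes were not treated as replicates, and no p-value was computed for the contrast. The activator genes are long, from 92.5 kb (BMAL2) to 177 kb (NPAS2), and their windows therefore covered more sequence than those of the other 4 genes, whose bodies span 21.3 to 34.7 kb. Among the 2141 protein-coding genes in the length range of the activators, 450 had a summit by this rule, a share like that of all genes.

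**Figure D1:**
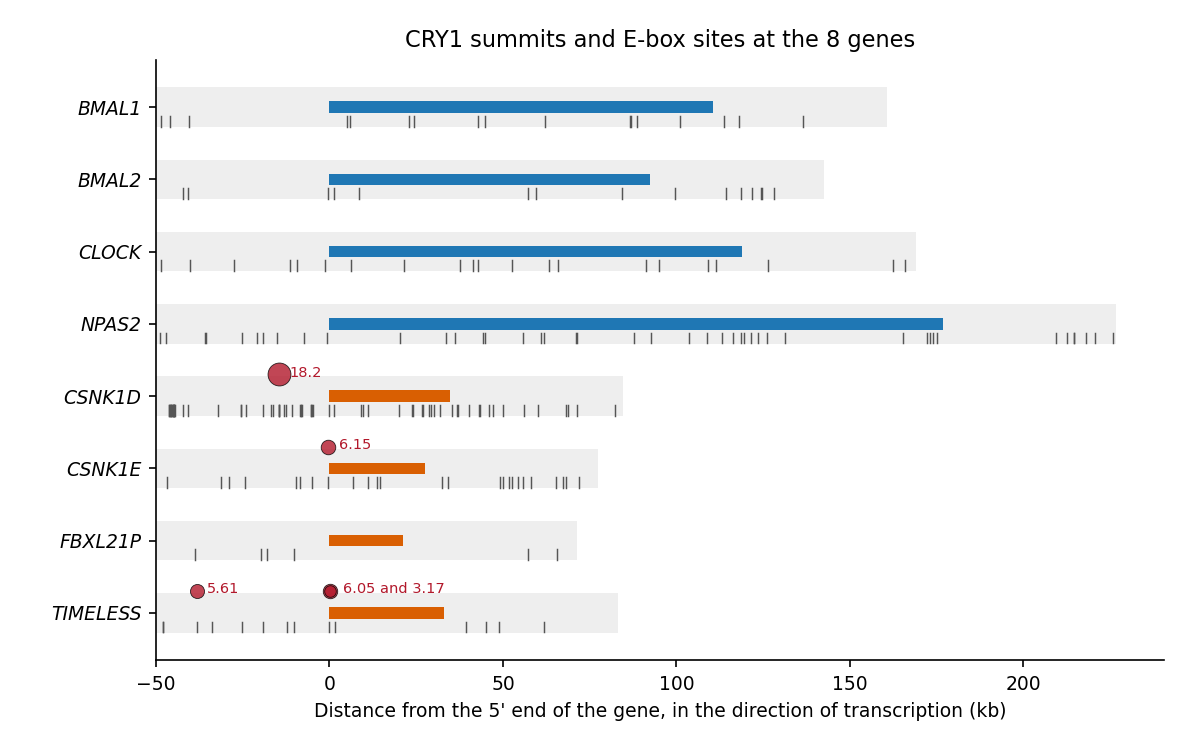
Each row is 1 gene, drawn in the direction of transcription with its body as a coloured bar (blue, activators; orange, kinase, FBXL and TIMELESS genes) on a grey band that reaches 50 kb past each end; short ticks are E-boxes and red circles are CRY1 summits, sized and labelled by fold enrichment. All 5 circles lie at CSNK1D, CSNK1E and TIMELESS, at or before the start of the gene, while the ticks are spread over every row.

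The strongest of the 5 peaks lay upstream of CSNK1D. CSNK1D (17:80196899-80231576, minus strand) encodes casein kinase 1 delta, one of the principal kinases that act on PER proteins. Its peak at 17:80245647-80246693 spanned 1047 bp and reached a −log10 q of 55.9 at a fold enrichment, the authors' linear ratio of pileup to local background, of 18.2. It ranked 16th by fold enrichment and 34th by −log10 q among the 2551 peaks, and 99.4% of peaks had a lower fold enrichment. The summit was intergenic, 14.5 kb upstream of the 5′-most CSNK1D TSS. The start of the long noncoding gene LINC01970 was closer, at 4605 bp, and the windows of SLC16A3, SECTM1 and CD7 also held this summit, so that the rule does not single out CSNK1D among its neighbours. CSNK1D was nevertheless the protein-coding gene with the nearest TSS. No summit lay within the CSNK1D gene body or within 10 kb of it.

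The 3 E-boxes of this peak started 24 bp and 69 bp apart and all carried the same neighbours, CCACGTGA. Between them lay units of the same form in which the hexamer was altered, as the printed sequence shows. Shifted against itself over 100 bp on each side of the summit, the sequence matched best at 23 bp, where 54.5% of bases were equal, compared with a median of 29.4% over all shifts from 5 to 100 bp. At the other 4 summits the best shift gave 31.3 to 39.3%. The tract was repetitive within itself, but no exact copy of its central part was found. None of the 70 stretches of 32 bases in the window of 50 bp on each side of the summit occurred elsewhere in the genome. This also held for the other 4 summits. Copies that have diverged would escape this exact count. By the same count, all 33 windows in a repeated stretch of chromosome X that carries many peaks had more than 50% of their 32-base stretches repeated.

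CSNK1E had a promoter peak of moderate strength. The gene (22:38686697-38714089, minus strand) encodes casein kinase 1 epsilon, the closest paralog of the delta form. The peak at 22:38714344-38714674 was 331 bp wide, with a −log10 q of 8.48 and a fold enrichment of 6.15, and ranked 814th by fold enrichment. The summit lay 364 bp upstream of the CSNK1E TSS. It also fell in an intron of TPTEP2-CSNK1E, an annotated readthrough transcript that runs across CSNK1E from a start further upstream. The single E-box in the peak began 51 bp from the summit, just past the 50-bp limit used for motif counts, and had the flanks ACACGTGT. The next summit, beyond the far end of CSNK1E, was 682 kb away near GGA1 and was stronger (fold enrichment 17.6).

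TIMELESS carried a pair of neighbouring peaks at its start, and both were weaker than the CSNK1D peak. The gene (12:56810147-56843210, minus strand) was the only one of the 8 with a summit inside its body. The peak at 12:56842940-56843053 was enriched 6.05-fold at a −log10 q of 8.23, with its summit in an intron 190 bp downstream of an annotated TSS. The peak at 12:56843189-56843277 was enriched 3.17-fold at a −log10 q of 2.65, with its summit in an untranslated exon and 10 bp upstream of the same TSS. The summits were 200 bp apart with 135 bp between the peaks, and whether they are separate sites was not tested. The weaker peak held the E-box, 22 bp upstream of the gene's 5′-most TSS and 33 bp from the summit, whereas the stronger one had its nearest E-box 233 bp away. Only 2.70% of all peaks had a lower fold enrichment than the weaker peak.

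A further peak was assigned to TIMELESS by distance alone. It lay at 12:56881175-56881481, 38.2 kb upstream, enriched 5.61-fold at a −log10 q of 5.97. The summit was 18 bp upstream of a TSS of GLS2, which encodes a mitochondrial glutaminase, and an E-box lay 28 bp from it. It was the outermost peak inside the 50-kb limit. The first summit beyond the limit was that of CCDC57, 86.2 kb from CSNK1D, enriched 4.22-fold at a −log10 q of 4.74.

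Within the whole list, the 5 peaks had a median fold enrichment of 6.05 (range 3.17 to 18.2) and a median width of 307 bp, against 5.18 and 181 bp over all 2551 peaks. An E-box lay within 50 bp of 3 of the 5 summits, and of 47.8% of all 2549 summits on chromosomes 1 to 22 and X. Within 100 bp the numbers were 4 of 5 and 54.6%. With so few peaks these counts do not separate the 5 from the rest. The clock repressor genes give a scale for the strength. All 10 of those examined (PER1, PER2, PER3, CRY1, CRY2, NR1D1, NR1D2, BHLHE40, BHLHE41 and CIART) had a summit no more than 5 kb from a TSS, as did 8.22% of protein-coding genes. This list was chosen with earlier results of these data known, so the count of 10 is no separate result. The strongest such peak of each gene had a fold enrichment from 7.99 (BHLHE41) to 22.8 (PER2). The promoter peaks of CSNK1E and TIMELESS were below this range, and the distal CSNK1D peak was above 9 of the 10 values.

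**Figure D2:**
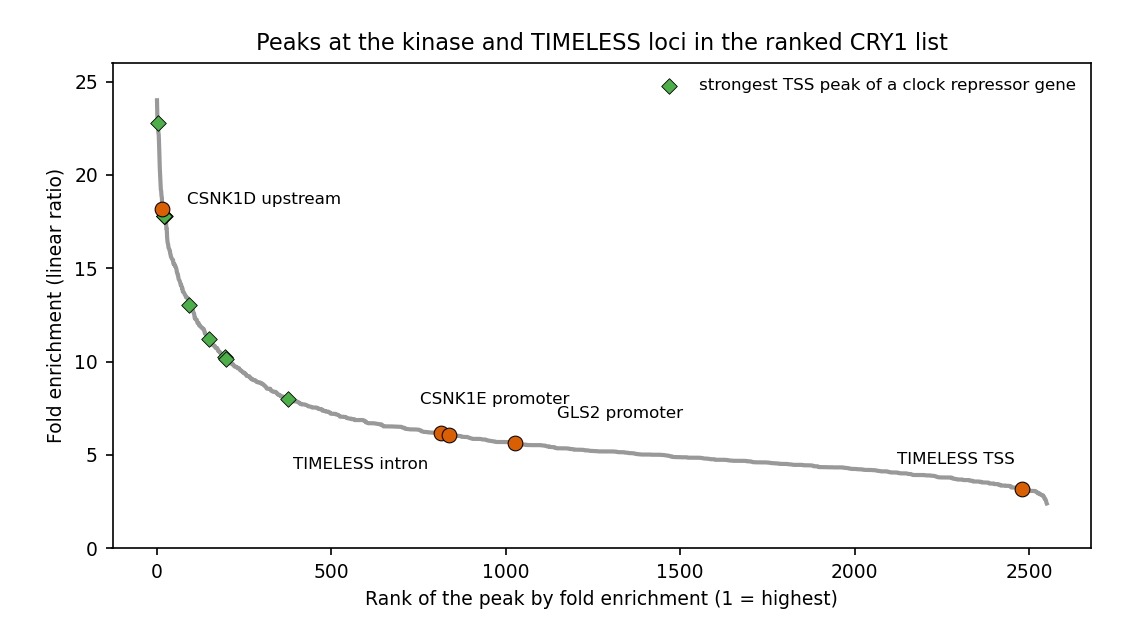
All 2551 peaks are ordered by the authors' fold enrichment (grey line), with the 5 peaks of the kinase and TIMELESS loci as orange circles and the strongest TSS peak of each of 10 clock repressor genes as green diamonds. The CSNK1D peak, at 18.2, sits among the repressor peaks, and the other 4 lie between 3.17 and 6.15, below every diamond.

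The activators lay far from any CRY1 summit. BMAL1 (11:13298199-13408813, plus strand) encodes the main partner of CLOCK. Its nearest summit was 1166 kb away, 135 bp upstream of a MICAL2 start (fold enrichment 14.1), and on the other side the first summit was 2321 kb away (15.1). NPAS2 (2:101436601-101613291, plus strand) had its nearest summit 1124 kb away in an IL1R1 intron (5.41). Neither gene had a summit within 1 Mb.

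For CLOCK (4:56294070-56413076, minus strand) the nearest summit was 888 kb away, in a PPAT intron 203 bp from the TSS (fold enrichment 6.53). BMAL2 (12:27485769-27578222, plus strand) was the activator closest to a summit, with an ITPR2 exon at 734 kb on one side (3.57) and the CCDC91 promoter at 765 kb on the other. FBXL21P (5:135266006-135287280, plus strand) resembled the activators rather than the kinases. Its nearest summit was 1376 kb away, in a JADE2 intron (5.20).

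These distances were long but not rare. The median was 1006 kb for the 4 activators and 278 kb for all protein-coding genes. Still farther from a summit than BMAL2, CLOCK and NPAS2 were 29.2, 25.4 and 20.6% of protein-coding genes, and the share was smaller for BMAL1 and FBXL21P, which had the longest distances. At the other end, 86.5, 91.6 and 93.1% of protein-coding genes lay farther from a summit than CSNK1D, CSNK1E and TIMELESS. The 8 genes thus fell into a near group of 3, at 14.5 kb or less, and a far group of 5, at 734 kb or more, with none in between. The near group is the same 3 genes that met the 50-kb rule, so the grouping is no separate result.

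**Figure D3:**
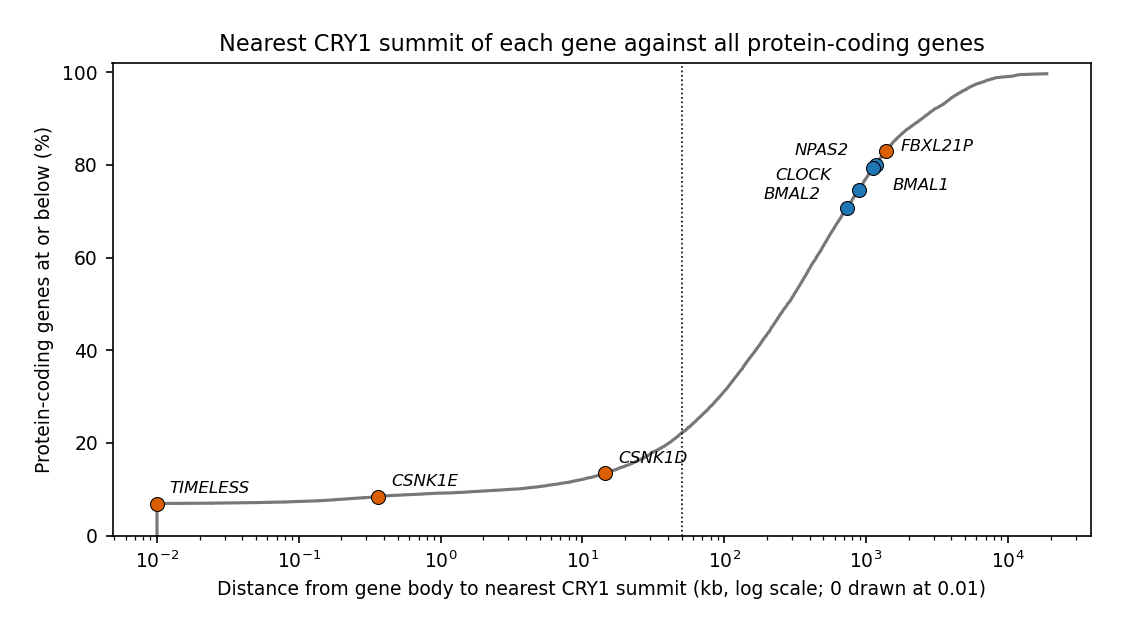
The grey curve gives the percentage of protein-coding genes whose body lies at or below a given distance from the nearest CRY1 summit (log axis in kb), and circles mark the 8 genes (blue, activators; orange, the others); the dotted line is 50 kb. The activators and FBXL21P sit together at 734 to 1376 kb on the upper part of the curve, and TIMELESS, CSNK1E and CSNK1D at its foot.

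The near and far groups also differed in their surroundings. Counting other protein-coding genes whose start lay within 1 Mb of the gene body, CSNK1D had 59, CSNK1E 52 and TIMELESS 77, against 8 for BMAL1, 14 for NPAS2, 15 for BMAL2, 17 for CLOCK and 14 for FBXL21P. Of these neighbours, 44 had a summit by the 50-kb rule at CSNK1D and 41 at TIMELESS, but only 8 at CSNK1E. The neighbours with a summit numbered 0 at BMAL1, NPAS2 and FBXL21P, 2 at BMAL2 and 4 at CLOCK. No summit lay within 1 Mb of BMAL1, NPAS2 or FBXL21P, so their 0 was nearly fixed by the distances above. At CSNK1D, CSNK1E and TIMELESS, the gene's own peak also counted for some neighbours, such as SECTM1, TMEM184B and GLS2. The counts of neighbours with a summit are therefore no separate result. Over all protein-coding genes, the share with a summit was 14.6% for genes with up to 20 such neighbours, 24.8% for 21 to 49, and 34.3% for 50 or more, and the median distance fell from 629 to 109 kb. All 5 genes without a peak were in the first class and all 3 with a peak in the last. These classes were set after the counts were seen, and the part of gene density in the contrast between activators and the other genes was not tested.

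**Figure D4:**
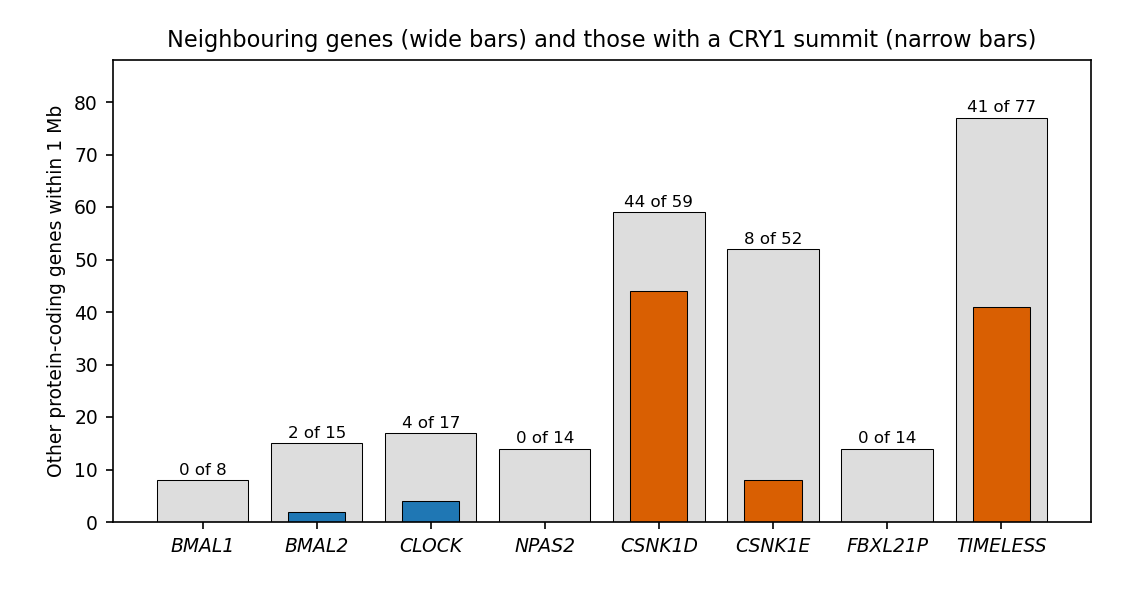
Wide grey bars count the other protein-coding genes that start within 1 Mb of each gene, and the narrow coloured bars count those of them with a CRY1 summit in the gene body or within 50 kb (blue, activators; orange, the others). CSNK1D, CSNK1E and TIMELESS have 52 to 77 neighbours and the remaining 5 genes have 8 to 17.

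E-boxes were present in the windows of all 8 genes, with or without a summit. Counted over gene body and flanks of 50 kb, the loci held 17 E-boxes at BMAL1, 15 at BMAL2, 21 at CLOCK and 44 at NPAS2, and 0 of these 97 had a summit within 50 bp. The loci of CSNK1D, CSNK1E, FBXL21P and TIMELESS held 68, 25, 6 and 14, of which 4 of 113 had one (2 at CSNK1D and 2 at TIMELESS). The 2 at CSNK1D lay in the same repetitive tract, and 1 of the 2 at TIMELESS lay at the GLS2 promoter. Over the genome, 1344 of 275867 E-boxes (0.487%) lay that close to a summit, and so did 3.72% of the 19317 within 1 kb of a TSS of a protein-coding gene. The 0 for the activators follows from the absence of any summit in these windows and is no separate result. Likewise, only windows that hold a summit can hold such E-boxes, so the 4 at the other loci are no separate result either. E-box density was 8.07 per 100 kb at BMAL1, 7.79 at BMAL2, 9.59 at CLOCK and 15.9 at NPAS2, compared with 8.91 in the genome and 50.5 at CSNK1D.

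Each activator had at least 1 E-box within 1 kb of an annotated TSS. The one nearest a TSS is shown for each in 30 bases, as a site at which a CRY1 peak could have been looked for. Such E-boxes without a summit were not particular to the activators. CSNK1D had 8 within 1 kb of a TSS and CSNK1E had 2, with 0 of either within 50 bp of a summit. For the kinase, FBXL and TIMELESS genes together it was 1 of 11. The BMAL1 site lay 213 bp upstream of an internal start, the BMAL2 site 461 bp upstream of the first start, the CLOCK site 660 bp downstream of an internal start, and the NPAS2 site 345 bp upstream of an internal start. Coordinates are chr11:13386736-13386765 (plus strand), chr12:27485294-27485323 (plus), chr4:56375520-56375549 (minus) and chr2:101610546-101610575 (plus), and capitals mark the E-box.
BMAL1 E-box: ccttcaaaagaaCACGTGcaagctgaattc
BMAL2 E-box: gtgtattctagaCACGTGgccataggatgt
CLOCK E-box: actaacttgtgaCACGTGaaagttatatga
NPAS2 E-box: ggtccgcaggttCACGTGggagccacacgt
Of the E-boxes within 100 bp of a summit at the kinase and TIMELESS loci, 5 of 6 had an A after the hexamer or, read on the other strand, a T before it, which makes the 7-mer CACGTGA; the exception was CSNK1E. Of these 5, 3 were the copies within the CSNK1D tract and so are not separate sites. The 7-mer was present in 3 of the 7 activator E-boxes within 1 kb of a TSS, in 40.9% of the 1344 E-boxes of the genome within 50 bp of a summit (a narrower limit than the 100 bp used for the 6), and in 35.2% of E-boxes in the genome. No 32-base stretch around any of the 22 E-boxes that lay near a TSS or a summit of the 8 genes was repeated in the genome.

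Core promoters were searched for clock motifs. RefSeq promoters of 300 bases (250 before and 50 after the start, GRCh38.p14) were available for 6 of the 8 genes, with 9 starts. Among these 9, the TIMELESS promoter alone contained CACGTG, which 7.23% of all 34943 promoters did. Starts outside this table can have one nearby, as at the internal BMAL1 start above, and CSNK1D, which the table does not hold, had an E-box 159 bp upstream of its first start on GRCh37. The related E′-box CACGTT, on either strand, occurred at CLOCK and CSNK1E (5.35% of all promoters). GC boxes, GGGCGG on either strand, were in promoters of all 6 genes and in 44.9% overall.

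The RORE, searched on both strands, was present in 1 promoter of BMAL1 and in 1 of CLOCK, while only 0.318% of all promoters held it. On GRCh37 the BMAL1 element lay in the transcribed 5′ end (chr11:13299354-13299383, plus strand), with its middle 6 bp from the nearest TSS, and that of CLOCK (chr4:56412297-56412326, minus strand) was centred 212 bp upstream of a TSS. Both are printed with the element in capitals, since they are clock motifs of another class in genes that had no CRY1 peak.
BMAL1 RORE: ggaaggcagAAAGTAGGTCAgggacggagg
CLOCK RORE: ctaggccttgTGACCCACTTTattcctgtc
A match of letters does not show that a factor was bound there.

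Genes that share functions with the 8 were read from lists by the same rules. Of the 7 casein kinase 1 genes, CSNK1E alone had a TSS peak (summit no more than 5 kb from a TSS), and 3 (CSNK1D, CSNK1E and CSNK1G2) had a summit within 50 kb of the gene body, where 22.1% of protein-coding genes did. Among 14 other kinases and phosphatases that act on clock proteins, only MAPK8, the stress kinase JNK1, had a TSS peak (10:49514186-49514626, fold enrichment 8.86), and 4 had a summit within 50 kb. Of 11 ubiquitin ligase components and proteases, only USP2, a deubiquitinase of clock proteins, had TSS peaks (2, the stronger with a fold enrichment of 6.01). Of the 20 other FBXL family genes, FBXL22 (6.02) and FBXL16 (3.88) had one. These shares, 1 of 7, 1 of 14, 1 of 11 and 2 of 20, are close to the 8.22% of all protein-coding genes.

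On the activator side, 2 of 12 other bHLH-PAS genes, relatives of CLOCK and BMAL1, had a TSS peak, against 8.22% of protein-coding genes. They were HIF1A, the oxygen-sensitive factor (14:62161532-62162267, fold enrichment 13.5), and SIM2 (7.04). Of 9 cofactors of the activators, 3 had one: CIPC, a CLOCK-interacting repressor (14:77564067-77566545, 14.7), the deacetylase SIRT1 (5.60) and the methyltransferase KMT2A (4.11). With lists this short, a count of 2 or 3 does not set them apart from the 8.22%. For TIMELESS, the fork protection partners TIPIN, CLSPN and WDHD1 had 0 of 3, and none of them had a summit within 50 kb, against 22.1% of protein-coding genes. CIPC, HIF1A and MAPK8 were the only genes of these lists, apart from the clock repressors, whose TSS peak had a fold enrichment above 8. An E-box lay within 50 bp of the summit of the strongest TSS peak at HIF1A, SIM2, CIPC, SIRT1, MAPK8 and USP2. None did at KMT2A, FBXL16, FBXL22 or CSNK1E, and 47.8% of all summits had one.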

How the data were processed

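Peaks were taken from 1 list. The authors' reads had been aligned to hg19 (GRCh37) with Bowtie2, and MACS2 had been run on the replicates together at q < 0.05. Use of the input as control is presumed, and duplicate handling was not given in the sources used here. The deposited values per peak are a score (the whole part of 10 times the −log10 q), a fold enrichment (linear ratio), and a −log10 q value. Pooling leaves no replicate error, and read depth is unknown from the list. A peak list gives no expression, so markers of the cell line could not be checked.

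Genes were those of GENCODE release 44 mapped to GRCh37. The 2 peaks on unplaced contigs took no part in distance or motif results. Distances ran from the summit to the gene body or TSS. E-boxes were counted up to 50 bp on each side of a summit. The genes named were the 8 members, the genes nearest to their peaks and flanking summits and, by rule, up to 5 genes per list with a TSS summit in order of fold enrichment; outside this rule, the full clock repressor list, CSNK1G2, the 3 fork partners, and SLC16A3, SECTM1 and CD7 were named after their values were seen. Members and lists were chosen with earlier results of these data known, so no test was run and counts stand beside the share of all protein-coding genes. Distance functions were tested on simulated data. Python 3.11.15, pysam 0.24.0 and pandas 2.3.3 were used.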

Additional observations from a re-analysis of the deposited data

How the results depend on the processing

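The 12 results were repeated under 69 alternatives, of which 55 left the count or value within 1.5 times of that reported (for the share of all genes, within its 95% counting interval). The activator count was 0 in each of its alternatives, including 100 kb around the gene body and any base of a peak in place of the summit. No other count was possible, because the summit nearest to any activator was 734 kb away and the stricter peak settings only remove peaks. With the gene body alone, 1 gene of the 8 had a summit, which was 1 of the kinase, FBXL and TIMELESS genes, with 2 peaks, and the share of protein-coding genes was 6.85%. Within 10 kb, 2 genes of the 8 had a summit, with 3 peaks, and the share was 12.1%. With 5 kb around any TSS there were again 2 genes and 3 peaks, and the share was 8.22%. In both settings the count for the kinase, FBXL and TIMELESS genes fell from 3 to 2, because CSNK1D was lost. This fall is at the limit of 1.5 times and is among the 55. Within 100 kb the share was 31.1%. Peaks with a fold enrichment of at least 5 gave 15.7%. Summits with an E-box numbered 0 of 5 with 25 bp on each side and 5 of 5 with 500 bp, and E-boxes of the loci near a summit numbered 0 with 25 bp. Genes of the lists with a summit rose from 20 to 31 with 50 kb around a TSS. A narrower or wider window by construction holds fewer or more summits.

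No paired analysis was possible because the values come from 1 pooled list, and no replicate was left out for the same reason. Read depth is unknown, and sites below the calling threshold are not in the list, so no statement on the activators reaches below it.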

Other observations

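The CSNK1D locus held a dense run of E-boxes that had no CRY1 summit. Of its 68 E-boxes, 16 lay in 1 stretch upstream of CD7, a T-cell surface antigen gene (17:80276206-80277789), and the stretch was 30.1 kb from the nearest summit, the CSNK1D peak itself. In the other 7 loci, the densest 2 kb held 2 or 3 E-boxes. The stretch was chosen after the counts were seen.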
